A study of Hordeum vulgare subsp. vulgare with 8 samples.

Results

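Alternative 3' splicing (A3S) and alternative 5' splicing (A5S) in germinating barley embryos were compared between the varieties Stirling and Baudin on one side and Bass and Harrington on the other. An event was placed on the side of a pair when it was listed in 3 or 4 of the 4 libraries of that pair and in no library of the other pair. Of 8325 distinct events, 37 were on the Stirling and Baudin side (0.444% of all distinct events) and 35 on the Bass and Harrington side (0.42%), which gave 72 events in 70 genes. An event was the gene with the start and end of its 3 exons: the constitutive exon, the annotated exon and the alternative exon, which differs from the annotated exon at one end. Each of the 4 varieties had 1 library after 24 h and 1 after 48 h of imbibition, 8 libraries in all. All seeds came from a single field trial and germinated at 21 °C in the dark, and the embryos of a library were pooled from a batch of seeds, so a library is a pool and not a plant. The labels give no treatment, genotype or trait that sets the pairs apart other than the variety. With 1 library per variety and time, variety cannot be told apart from differences between single pools of embryos or libraries.

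Introns are removed by the spliceosome, which joins a donor site at the 5' end of the intron to an acceptor site at its 3' end. In A3S a second acceptor is used, so the downstream exon starts earlier or later, and in A5S a second donor is used, so the upstream exon ends earlier or later. When the distance between both sites is a multiple of 3 nt, the reading frame downstream is kept, and otherwise it shifts and can bring in an early stop codon that exposes the mRNA to nonsense-mediated decay. A difference in DNA sequence at a splice site can create or remove that site in a variety.

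The lists held 15995 entries, between 1711 events in Harrington at 48 h and 2537 in Bass at 24 h. The pair of Stirling and Baudin had 8251 entries and 5505 distinct events, and the pair of Bass and Harrington had 7744 and 5293. The median read depth of the annotated exon was between 25.8 and 32.3 in the 8 libraries. Read depth was read here as the mean number of reads over the bases of an exon, and it was not scaled for library size. Of all events, 5195 were listed in a single library, which made up between 29.4% and 37.7% of each library. An event missing from a list was not called there, which is not a measured 0. Among listed genes with a description, 5 had words for embryo proteins and 2 had words for endosperm or aleurone proteins, so these lists could check the labelled tissue only this far.

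The 72 events were few beside events that crossed the pairs. Of the 331 events in all 4 libraries of Stirling and Baudin, 3 were in no library of Bass and Harrington and 173 were in all 4. Of the 269 events in all 4 libraries of Bass and Harrington, 1 was in no library of Stirling and Baudin. Just outside the rule were 93 events in 3 libraries of Stirling and Baudin with 1 library of the other pair, and 56 such events for Bass and Harrington. Another 325 and 260 events were in 2 libraries of a pair and in none of the other.

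**Figure D1:**
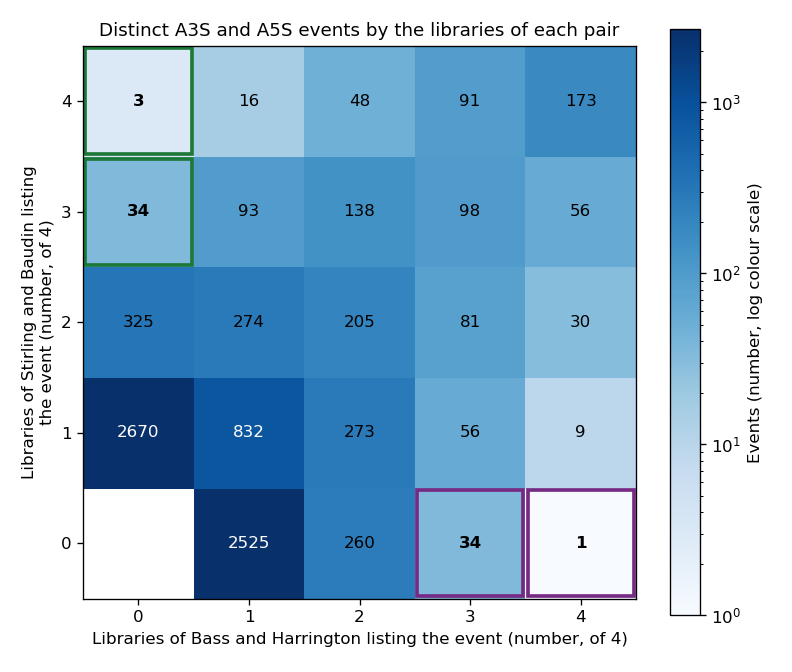
Each cell gives the number of distinct A3S and A5S events listed in the stated number of libraries of Bass and Harrington (horizontal axis, number of 4) and of Stirling and Baudin (vertical axis, number of 4), on a log colour scale. Boxed cells are the events of each side, 3 and 34 for Stirling and Baudin and 1 and 34 for Bass and Harrington, against 173 events in all 8 libraries.

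The 4 varieties can be paired in 3 ways, and the pairing of Stirling and Baudin against Bass and Harrington had the fewest events on its sides. Its 72 events were 7.40% of the 973 events listed in 3 or 4 libraries. Bass and Stirling against Harrington and Baudin had 97 events (9.97%), and Bass and Baudin against Harrington and Stirling had 104 (10.7%). Events in all 4 libraries of a pair and none of the other numbered 4 here and 11 in each of the other 2 pairings. For A3S the 3 pairings had 48, 66 and 78 events in the same order, and for A5S they had 24, 31 and 26. With 3 pairings no test over the varieties can give a p-value under 0.333, so the order of the pairings is a description. The place of this pairing as the fewest rested on the Bass libraries. Without Bass at 24 h, which had the longest list, the pairing had 93 events against 70 and 88, and without Bass at 48 h it had 66 against 64 and 84. The order of the other 2 pairings also changed, for example to 74 and 70 with a minimum depth of 10. Leaving out 1 library at a time moved the sides to between 10 events (without Stirling at 24 h) and 81 (without Bass at 24 h) for Stirling and Baudin. For Bass and Harrington it moved them to between 7 (without Harrington at 48 h) and 58 (without Stirling at 24 h).

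The sides differed in their types of event. The Stirling and Baudin side had 21 A3S and 16 A5S events, and the Bass and Harrington side had 27 A3S and 8 A5S events. A3S thus made up 56.8% of the first side and 77.1% of the second, beside 65.7% of all distinct events. The lists of Stirling and Baudin also held more A5S entries, 2825 against 2458, and 5426 against 5286 A3S entries. With lists cut to equal length, chosen after seeing the data, the excess of A5S on the first side was gone. The sides then had 14 A3S and 9 A5S against 22 A3S and 14 A5S events. The cut kept the events with the deepest alternative exons, so it also selected on depth. The first side kept more A5S events with a minimum depth of 10 (9 against 4) and with the gene in place of the event (24 against 7). With at least 2 libraries from both varieties it was 108 against 67. With a library of Stirling or Baudin left out the first side had fewer, for example 6 against 17 without Stirling at 24 h. With a library of Bass or Harrington left out it had more, for example 36 against 5 without Bass at 24 h. All 3 libraries left in the cut pair then had to list the event. The rule itself thus lowers the cut side, and these counts cannot bear on the excess of A5S. The difference between the sides was not tested. Their near equal size also changed with the definition, to 23 against 36 events with lists of equal length and to 53 against 28 with the gene in place of the event.

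**Figure D2:**
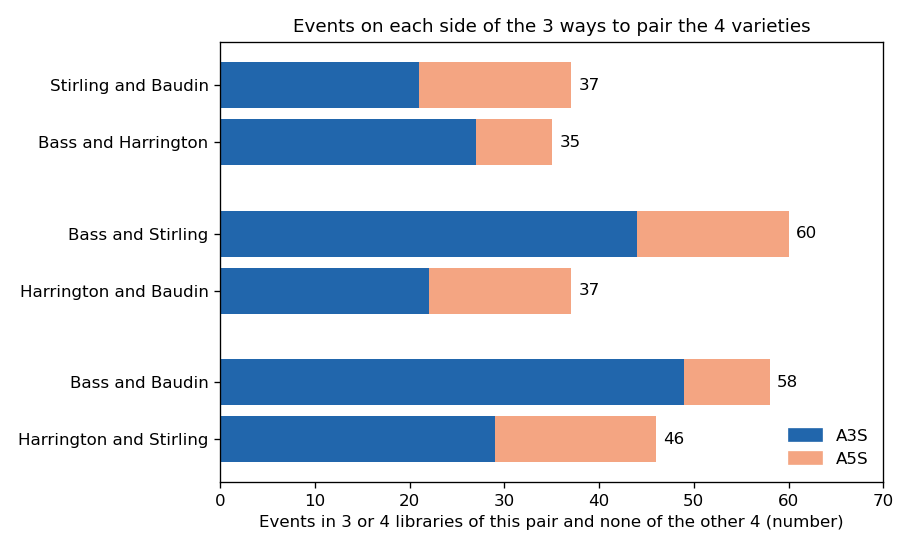
Bars give the number of events in 3 or 4 libraries of the named pair and in none of the other 4 libraries, split into A3S and A5S, for both sides of the 3 ways to pair the varieties. The sides of Stirling and Baudin against Bass and Harrington had 37 and 35 events, and the sides of the other pairings had 60 and 37 and 58 and 46.

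Events that set the pairs apart at a single time were in part listed by each of the pairs at the other time. At 24 h, 142 events were in both Stirling and Baudin and in neither Bass nor Harrington, and 51 of them (35.9%) were listed by Stirling or Baudin at 48 h. Almost as many, 44 (31.0%), were listed by Bass or Harrington at 48 h. Of the 125 events in both Bass and Harrington alone at 24 h, 39 (31.2%) came back in the same pair at 48 h and 47 (37.6%) appeared in the other pair. The same was done for the events of 48 h, with the lists of 24 h. Of 135 events of Stirling and Baudin, 66 (48.9%) were listed by that pair and 64 (47.4%) by the other pair. Of 117 events of Bass and Harrington, 53 (45.3%) were listed by that pair and 55 (47.0%) by the other. For A5S alone the percentages of the own and the other pair lay further apart, in either direction, with 19 and 12 of 57 events of Stirling and Baudin at 24 h. For Bass and Harrington they were 12 and 17 of 35 at 24 h and 22 and 17 of 34 at 48 h. With A3S and A5S together, the lists of 24 h were longer than those of 48 h in each variety. For A5S alone, Harrington had 549 events at 24 h and 561 at 48 h. The part of list length in the percentages was not tested.

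At 24 h this pairing again had the fewest such events, 142 and 125 against 203 and 133 and against 228 and 138 in the other 2 pairings. At 48 h it was not the lowest. The numbers were 135 and 117, against 109 and 112 for Bass and Stirling against Harrington and Baudin, and 149 and 128 for Bass and Baudin against Harrington and Stirling. In the other 2 pairings the own pair listed more of these events at the other time than the opposite pair on most sides. The exception was Harrington and Baudin at 48 h, with 46.4% against 53.6%. The others ran from 36.0% against 34.2% (Bass and Baudin at 24 h) to 54.1% against 36.7% (Bass and Stirling at 48 h).

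Event sharing between 2 varieties at the same time was the number of common events divided by the number of distinct events of the 2 libraries, in percent. By this measure the mean within the pairs was below the mean across the pairs at 24 h for both types. At 48 h it was below for A3S and above for A5S, each by less than the SD over the 6 comparisons. For A3S at 24 h, sharing was 22.6% between Stirling and Baudin and 19.9% between Bass and Harrington, and between 21.1% and 23.6% in the 4 comparisons across the pairs. The mean within the pairs minus the mean across was -1.41 percentage points, beside an SD of 1.39 over the 6 comparisons. In the other 2 pairings this difference was 0.20 and 1.21 percentage points. Without Bass it was 0.53 in place of -1.41, and without Baudin -3.36.

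For A5S at 24 h, Stirling and Baudin shared 19.0% and Bass and Harrington 17.2%, against 18.8% to 19.7% across the pairs. The difference was -1.30 percentage points (SD 0.939 over the 6 comparisons), and 0.38 and 0.93 in the other pairings. Without Bass it was -0.16. In both types the lowest value at 24 h was that of Bass with Harrington, the libraries with the longest and the shortest list at that time. Their lists held 1712 and 1219 A3S events. As a percentage of the shorter list the differences were close, -1.59 for A3S and -1.45 for A5S, but the pair that shared least turned round. By that measure Stirling with Baudin was the lowest of the 6 comparisons at 24 h, with 37.5% for A3S and 33.0% for A5S, against 40.0% and 36.8% for Bass with Harrington.

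At 48 h the differences were smaller by the first measure. For A3S, Stirling and Baudin shared 22.8% and Bass and Harrington 21.3%, against 20.9% to 22.9% across. The difference was -0.06 percentage points (SD 0.804), beside -0.78 and 0.84 in the other pairings. For A5S the shares were 20.4% and 19.4%, against 18.9% to 20.6% across, with a difference of 0.23 (SD 0.693), beside -1.07 and 0.84. The sign of both differences at 48 h changed in 4 of 8 alternatives. As a percentage of the shorter list the A5S difference was -1.79, and with the gene in place of the event it was 1.78. As a percentage of distinct events, the value for Stirling and Baudin lay inside the range of the comparisons across the pairs at both times and for both types. As a percentage of the shorter list it lay below that range at 24 h, which was 38.9% to 41.6% (A3S) and 33.4% to 38.8% (A5S). A variety shared 20.1% ± 0.962 of its A3S events and 16.9% ± 1.25 of its A5S events between 24 h and 48 h (SD, n = 4 varieties). Single varieties had A3S values between 19.3% and 21.4% and A5S values between 15.7% and 18.5%, highest in Stirling. Most comparisons between varieties at one time were higher. For A3S they ran from 19.9% to 23.6% at 24 h and from 20.9% to 22.9% at 48 h, so the ranges met only at their ends. For A5S at 48 h all of them, from 18.9% to 20.6%, lay above the highest single variety. For A5S at 24 h only Bass with Harrington, at 17.2%, lay in the range of single varieties. The difference was not tested.

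**Figure D3:**
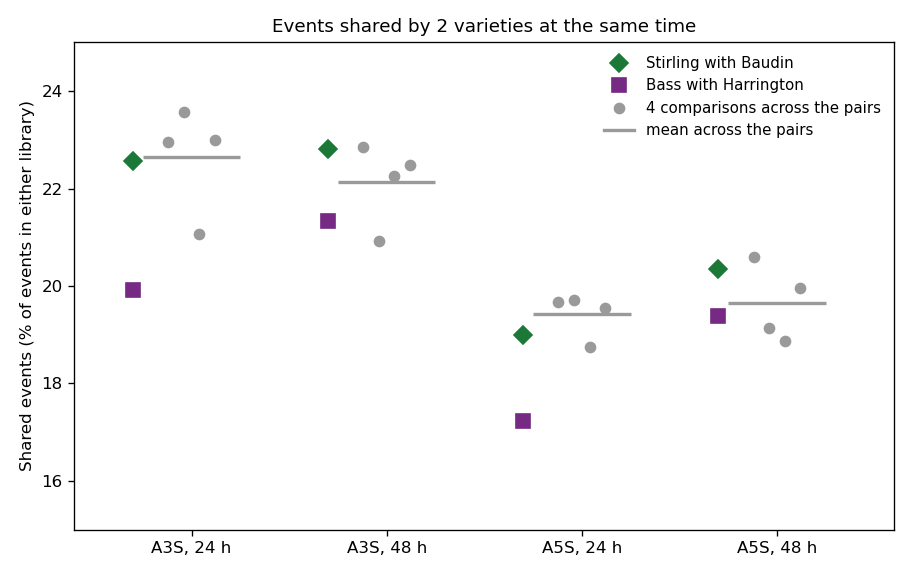
The vertical axis gives the events in both libraries as a percentage of the events in either, for each type and time. Diamonds are Stirling with Baudin, squares Bass with Harrington, and grey points the 4 comparisons across the pairs with their mean as a line. The square lies lowest at 24 h, at 19.9% for A3S and 17.2% for A5S, and no diamond lies above all grey points.

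Events in all 4 libraries of a pair and none of the other were at exons with a mean depth from 11.4 to 41.4. Coordinates are those of the linkage groups (LG) of the Morex assembly in the deposited lists. On the Stirling and Baudin side, MLOC_15266.1 (LG10, minus strand) had A5S at the exon from 107591346 to 107591622, and the alternative exon was 24 nt longer and starts at 107591322. The depth of the annotated exon was 35.1 in Stirling at 24 h, 41.9 in Stirling at 48 h, 36.4 in Baudin at 24 h and 52.1 in Baudin at 48 h. The depth was highest in Baudin at 48 h, and the 24 nt keep the reading frame if they are coding. No event of this gene was listed in Bass or Harrington.

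MLOC_55212.1 (LG01, minus strand) had A3S at the exon from 56598074 to 56598217, with an alternative exon that ends at 56598196 and is 21 nt shorter. Its depth was 13.4 and 16.2 in Stirling and 14.0 and 17.9 in Baudin, at 24 h and 48 h. MLOC_65264.3 (LG01, plus strand) had A3S at the exon from 142097141 to 142097307, with an alternative exon that starts at 142097131 and is 10 nt longer. Its depth was 10.6 and 14.4 in Stirling and 8.55 and 15.5 in Baudin. Both exons were deeper at 48 h than at 24 h in either variety, and neither gene was listed in Bass or Harrington. These 3 genes had no description in the sources used here.

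On the Bass and Harrington side, MLOC_71910.1 (LG02, minus strand) was the 1 event in all 4 libraries, an A3S event that lengthened the exon from 62575015 to 62575117 by 229 nt, up to 62575346. The depth was 21.1 and 3.39 in Bass and 17.7 and 3.66 in Harrington at 24 h and 48 h. It was thus lower at 48 h in both varieties. In Baudin at 24 h the same exon was listed as the constitutive exon of another A3S event, at a depth of 23.3. The exon was therefore read in the other pair at a depth close to that of Bass and Harrington at 24 h.

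The deepest events in 3 of 4 libraries on the Stirling and Baudin side were mostly A5S. MLOC_6065.1 (LG04, minus strand) had A5S with 31 nt less at the exon from 46478322 to 46478663, at depths of 2430.1 and 1834 in Stirling and 2713 in Baudin at 24 h. MLOC_18718.1 (LG10, minus strand) lost 9 nt of the exon from 148021927 to 148022076, at 2791 in Stirling at 24 h and 1837 and 1080.3 in Baudin. MLOC_32920.1 (LG05, plus strand) lost 37 nt of the exon from 101260464 to 101260644, at 1721 in Stirling at 24 h and 1595 and 1621 in Baudin. Depth was thus of the same order in both varieties of the pair. The exon of MLOC_18718.1 was also listed in Harrington, at 2705 and 2080.6 at 24 h and 48 h, as the constitutive exon of an A3S event that adds 9 nt to the next exon. That A3S event was in 5 libraries, both of Harrington, both of Baudin and Stirling at 24 h. The A5S event was hence not listed in Harrington although the exon was as deep there as in Stirling and Baudin.

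MLOC_77840.1 (LG01, plus strand) was the deepest A3S event of this side, with 24 nt less at the exon from 11935035 to 11935192. Its depth was 1199 and 785 in Stirling and 709.7 in Baudin at 24 h, and the event was not listed in Baudin at 48 h, where the exon was at 1085. In Bass the exon was at 916 and 746, and in Harrington at 420.2 and 695. All 8 libraries therefore had the exon with some event, and the depths of the pairs overlapped. An A3S event 27 nt shorter at the same exon was in 4 libraries: Bass and Harrington at 48 h, Stirling at 24 h and Baudin at 48 h. Events 3 nt and 21 nt shorter were listed in Harrington at 24 h and in Baudin at 24 h. The gene thus had several acceptors near each other, and the one that was listed varied between libraries of the same variety.

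The deepest events in 3 of 4 libraries on the Bass and Harrington side were A3S. MLOC_53830.1 (LG01, minus strand) gained 20 nt at the exon from 46126846 to 46126985, at depths of 2752 in Bass at 48 h and 2930.4 and 2387 in Harrington. The exon was at 3600.1 in Bass at 24 h, where the event was not listed, and at 3226, 2612 and 3062 in Stirling at both times and Baudin at 24 h. The depths of the pairs thus overlapped at an exon that lacked the event in Stirling and Baudin. MLOC_55882.1 (LG01, minus strand) lost 9 nt of the exon from 62214919 to 62215044, at 622 in Bass at 24 h and 692 and 532 in Harrington. The exon was at 569 in Baudin at 24 h, with an event 12 nt shorter, which lies 3 nt from the event of Bass and Harrington.

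MLOC_60041.3 (LG07, plus strand) gained 93 nt at the exon from 36073338 to 36073459, at 371 and 210.4 in Bass and 202 in Harrington at 48 h. Stirling at 48 h listed the exon at 265, with an A5S event. MLOC_7943.1 (LG04, plus strand) lost 4 nt of the exon from 66270043 to 66270222, at 279 and 228 in Bass and 217 in Harrington at 48 h. This gene was in no list of Stirling or Baudin. None of the 8 deep genes of both sides had a description in the sources used here.

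Descriptions were known for 12 of the 70 genes, and for 905 of all 4634 listed genes. On the Stirling and Baudin side they were MLOC_30530.5, subunit 3 of the actin-related protein 2/3 complex that starts branched actin filaments, and MLOC_16321.3, a YTH domain protein of the family that binds methylated adenosine in RNA. MLOC_38681.2 is a PHD finger protein, of a kind that reads histone tails, MLOC_66645.3 a polyadenylate-binding protein 2-A and MLOC_78891.2 a putative methyltransferase. In MLOC_30530.5, A3S removed 133 nt of a 270 nt exon, at depths of 81.4 and 76.8 in Stirling and 37.4 in Baudin at 24 h. In MLOC_16321.3, A3S removed 62 nt, at 37.9 in Stirling at 24 h and 38.6 and 36.5 in Baudin. The exon was at 37.7 in Bass at 24 h with an event 11 nt shorter, which Stirling and Baudin at 24 h also listed. The depths of this exon were thus almost equal in 3 varieties. MLOC_66645.3 was near the lower limit of the lists, with depths from 2.92 to 7.82.

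On the Bass and Harrington side, MLOC_60540.2 is described as ABIL1, which in Arabidopsis belongs to a complex that activates actin branching, and MLOC_57282.1 as FCA, an RNA-binding protein that promotes flowering in Arabidopsis. MLOC_15403.1 is described as agmatine deiminase, an enzyme of polyamine synthesis, and MLOC_81213.1 as an enhancer of mRNA decapping. In MLOC_60540.2, A3S removed 6 nt at depths of 142 in Bass at 24 h and 118 and 148 in Harrington. In MLOC_57282.1, A3S removed 9 nt at 101 in Bass at 48 h and 118 and 88.0 in Harrington, while the exon was at 165 in Stirling at 24 h. In MLOC_81213.1, A3S removed 3 nt at 49.9 in Bass at 24 h and 25.2 and 27.9 in Harrington. These 3 distances are multiples of 3 nt, whereas A3S in MLOC_15403.1 removed 13 nt, at depths from 45.8 to 122.

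Of 13 lists of genes drawn up from words in the descriptions, 3 held an event of either side, all on the Bass and Harrington side. Translation factors had 1 of 19 genes, MLOC_65935.3, subunit 9 of the initiation factor eIF3, which helps to bring the small ribosomal subunit to mRNA. A3S removed 106 nt of its exon from 148813211 to 148813409 (LG01, minus strand), at depths of 18.4 and 18.0 in Bass and 18.8 in Harrington at 48 h. That exon had depths in all 8 lists, from 12.7 in Harrington at 24 h to 22.1 in Baudin at 24 h. An event 94 nt shorter was in 7 libraries and an event 97 nt shorter in Bass and Harrington at 48 h, so both pairs spliced this exon in more than one way.

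Protein kinases and phosphatases had 1 of 73 genes, MLOC_4609.1, the mitogen activated protein kinase 20-4 of a family that relays signals by phosphorylation. A3S removed 8 nt of its exon from 34223195 to 34223296 (LG04, plus strand), at 39.2 and 42.7 in Bass and 40.0 in Harrington at 24 h. Membrane transport had 1 of 35 genes, the amino acid transporter MLOC_20163.2, with A5S adding 31 nt at depths from 2.00 to 3.80. Of the other lists, ribosomal proteins had 0 of 30 genes, splicing factors and spliceosome proteins 0 of 13, ubiquitin and proteasome 0 of 42, and transcription factors 0 of 34. Carbohydrate metabolism had 0 of 29 genes, genes whose descriptions have the words RNA-binding or RNA helicase 0 of 17, heat shock proteins and chaperones 0 of 10, hormone signalling 0 of 11, embryo proteins 0 of 5 and other grain tissue 0 of 2. The lists match words alone, so FCA, the YTH domain protein and the polyadenylate-binding protein are not in the RNA-binding list. As 12 of 905 described genes (1.33%) held a member, counts of 0 or 1 are near the background and are no result about any list.

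Of 11 genes of the auxin, jasmonate, cytokinin and abscisic acid pathways that the study singled out, 7 were listed with A3S or A5S, in 22 events, and 0 of these events were on either side. As 72 of 8325 events are 0.865%, 0 of 22 is near the background and is no result about these genes. Several of these events were 1 library from the rule, in the SnRK2 genes MLOC_69212.1 and MLOC_63787.3, kinases of abscisic acid signalling. In MLOC_69212.1 the exon from 2454699 to 2454797 lost 59 nt in 3 libraries of Stirling and Baudin and 1 of Bass and Harrington. Its exon from 2455583 to 2455684 lost 31 nt in 2 libraries of Bass and Harrington and 0 of Stirling and Baudin. In MLOC_63787.3 the exon from 126845216 to 126845320 lost 7 nt, also in 2 libraries of Bass and Harrington and 0 of Stirling and Baudin.

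The 72 events had features near those of all 973 events in 3 or 4 libraries. The distance between both sites was a multiple of 3 nt in 38.9% of the 72 and in 42.2% of the 973, and at most 12 nt in 43.1% and 43.6%. The exons could not be placed in coding sequence or UTR here, so a multiple of 3 nt is known only as a distance. The alternative exon was the shorter form in 63.9% and 63.2%. The median depth was lower, 22.1 against 32.4, and 26.4% against 19.4% had a depth under 10. Events on LG01 made up 30.6% against 37.0%. Of the 173 events in all 8 libraries, 60.7% had such a distance, at a median depth of 42.7. These are descriptions without a test.

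The sides differed in the distance between the sites. On the Stirling and Baudin side the median distance was 23 nt, with 12 of 37 events (32.4%) at most 12 nt apart, and the longest was the 1113 nt that A5S added in MLOC_36568.1. On the Bass and Harrington side the median was 12 nt, with 19 of 35 events (54.3%) at most 12 nt apart and a longest distance of 229 nt. A distance of exactly 3 nt was found in 0 and 3 events, in MLOC_81213.1, MLOC_38630.1 and MLOC_18185.2, and in 91 of the 973 events. Distances that are a multiple of 3 nt were 13 of 37 (35.1%) and 15 of 35 (42.9%). The first side also held more A5S events, as given above, and the part of the event type in these distances was not tested.

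Events in 3 of 4 libraries could miss any of them. On the Stirling and Baudin side the missing library was Stirling at 24 h for 7 events, Stirling at 48 h for 10, Baudin at 24 h for 8 and Baudin at 48 h for 9. On the other side it was Bass at 24 h for 11, Bass at 48 h for 9, Harrington at 24 h for 8 and Harrington at 48 h for 6. Each library was thus the missing one for 6 to 11 events, most often Bass at 24 h, which had the longest list.

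Where the exon of an event was also listed in the other pair, its depth there was similar. The gene was listed in the other pair for 21 of 37 events of Stirling and Baudin and for 22 of 35 events of Bass and Harrington. The depth of the annotated exon was known in the other pair for 13 and 15 events. It was within 2-fold between the pairs for 13 of 13 and 15 of 15, and deeper in the pair that listed the event for 6 and 7 of them. The log2 ratio of own over other pair ran from -0.94 to 0.44 and from -0.99 to 0.70. For all 4837 exons with a depth in both pairs, 91.5% were within 2-fold. At these 28 exons the event was not listed in the other pair although the exon was read there. For the other 44 events the depth in the other pair is not known.

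Other splice events were often present at these exons. The other pair had another event at the same annotated exon for 11 events of Stirling and Baudin and 9 of Bass and Harrington, of the same type in 7 and 7 of them. The same annotated and alternative exon with another constitutive exon was found for 0 events on either side. In MLOC_71836.1 (LG02), whose A3S event of Stirling and Baudin added 39 nt, an event 2 nt shorter was listed in 7 libraries of all 4 varieties. In MLOC_37383.2 (LG15), whose A3S event of Bass and Harrington removed 36 nt, events 18 nt and 23 nt shorter were in 7 and 5 libraries.

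**Figure D4:**
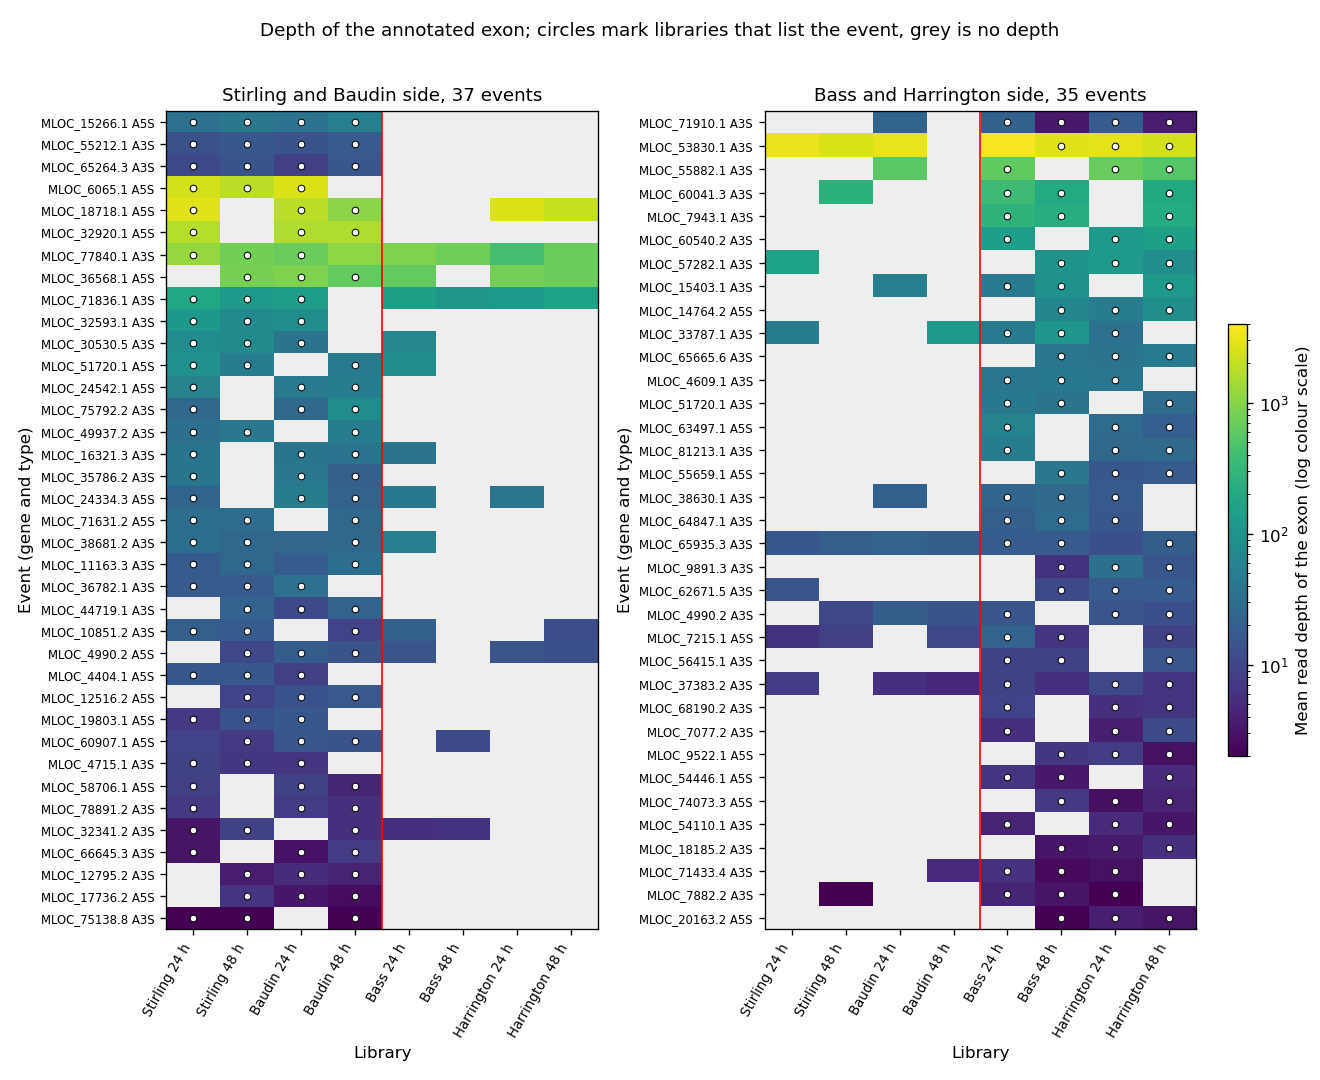
Rows are the 37 events of the Stirling and Baudin side and the 35 of the Bass and Harrington side, columns the 8 libraries, and colour the mean read depth of the annotated exon on a log scale. White circles mark the libraries that list the event, cells without a circle have the exon from another event or a constitutive exon, and grey cells have no depth. The red line parts the pairs, and for 13 and 15 events colour crosses it, at depths within 2-fold.

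MLOC_4990.2 and MLOC_51720.1, named after their values were seen, had an event on each side. In MLOC_4990.2 (LG04, minus strand) both events were at the exon from 37445899 to 37446152. Stirling at 48 h and Baudin at both times listed A5S with 20 nt less at one end, at depths of 10.4, 18.7 and 14.4. Bass at 24 h and Harrington at both times listed A3S with 11 nt less at the other end, at 14.7, 14.7 and 13.0. The depths of the pairs overlapped, and the exon carried a different alternative end in each. In MLOC_51720.1 (LG01, minus strand), A5S removed 27 nt from the exon from 36671460 to 36671976 in Stirling and Baudin, and A3S removed 7 nt from the exon from 36670942 to 36671127 in Bass and Harrington.

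No exon that every library listed passed a test of its depth between the pairs. There were 374 such exons in 189 genes, and log2 depth, centred on the median of each library and averaged over 24 h and 48 h, was compared between 2 and 2 varieties with limma. With Benjamini-Hochberg adjustment 0 exons passed (0%), the smallest adjusted p-value was 0.957, and 13 exons had an unadjusted p under 0.05. With all 8 libraries and the variety as a random block 0 passed and 20 had an unadjusted p under 0.05. The smallest adjusted p was 0.0511 when Baudin at 24 h was left out. After centring, all 4 libraries of Stirling and Baudin were deeper in 2 exons (0.535%) and all 4 were shallower in 2 (0.535%).

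The exons without overlap of the centred values, named after their values were seen, were MLOC_57406.1, MLOC_36820.1, MLOC_51956.1 and MLOC_5322.5. The exon from 74344870 to 74344944 of MLOC_57406.1 (LG01), a ubiquitin-conjugating enzyme E2 7 that passes ubiquitin to target proteins, was at 245 and 170 in Stirling and 219 and 161 in Baudin. It was at 177 and 93.4 in Bass and 98.7 and 62.5 in Harrington, at 24 h and 48 h, so that the depths overlapped before centring. After centring the difference was 0.88 ± 0.248 (log2, SE). In MLOC_36820.1 (LG15), a glutathione S-transferase 2 of the detoxifying enzymes, the exon from 66291210 to 66291271 was at 5.24 to 7.10 in Stirling and Baudin and at 7.36 to 10.4 in Bass and Harrington, a difference of -0.56 ± 0.162. The difference was 0.55 ± 0.168 in MLOC_51956.1 and -0.34 ± 0.211 in MLOC_5322.5, and the adjusted p of these 4 exons was 0.957 in limma.

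Use of the alternative site was then compared in the 173 events listed in all 8 libraries, 136 A3S and 37 A5S. The measure was the log2 ratio of the depth of the stretch between both sites to the depth of the part of the exon that both forms share. If the longer form alone carries the stretch, a higher ratio means more of that form, and the ratio cannot pass 1. In MLOC_66800.1 the ratio was between 2.28 and 4.48 in the 8 libraries. The ratio is therefore a ratio of depths and not a share of the longer form. In limma 0 events passed (0%), 12 had an unadjusted p under 0.05 (13 with the variety as a random block, where 0 passed), and the smallest adjusted p was 0.0911. Over the alternatives the smallest adjusted p was between 0.0605 and 0.52. In 3 events (1.73%) the ratio was higher in all 4 libraries of Stirling and Baudin, and in 6 (3.47%) it was lower in all 4. The events below were named after their values were seen.

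The smallest adjusted p, 0.0911, was shared by MLOC_7274.1 and MLOC_10713.1. In MLOC_7274.1 (LG04, plus strand), A3S adds 8 nt before the exon from 57996712 to 57997224, and the ratio was 0.0256 and 0.0191 in Stirling and 0.0159 and 0.0351 in Baudin, at 24 h and 48 h. It was 0.0394 and 0.0779 in Bass and 0.0995 and 0.0353 in Harrington. The difference was -1.32 ± 0.121 (log2, SE), but the highest value of the first pair and the lowest of the second were almost the same. In MLOC_10713.1 (LG10, plus strand), a small ubiquitin-like modifier 1 that is attached to other proteins, A5S removes 12 nt of the exon from 58983132 to 58983215. The ratio at 24 h was 0.0419 in Stirling and 0.104 in Baudin against 0.00538 in Bass and 0.00301 in Harrington. At 48 h it was 0.186, 0.143, 0.114 and 0.151 in the same order, so that the pairs overlapped at that time. The log2 difference was 4.03 at 24 h and 0.31 at 48 h, and the mean of 2.17 ± 0.221 rested on 24 h. Before each ratio was taken, 0.5 was added to both depths. The ratios of 0.00538 in Bass and 0.00301 in Harrington can therefore depend on the added 0.5, and so can the difference of 4.03. The SE is over varieties averaged over both times, so it leaves out the spread between 24 h and 48 h.

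The AUX/IAA gene MLOC_65332.2 (LG01, plus strand), whose proteins repress auxin responses until auxin leads to their breakdown, had the largest difference among events without overlap. The alternative exon starts at 142678516, 3 nt before the annotated exon. The ratio was 0.225 and 0.158 in Stirling and 0.0364 and 0.237 in Baudin, at 24 h and 48 h. It was 0.723 and 0.295 in Bass and 0.529 and 0.317 in Harrington. The ratio over the stretch of 3 nt was thus lower in all 4 libraries of Stirling and Baudin. Depths between the sites below 0 were set to 0, and 0.5 was added to both depths. The ratio of 0.0364 in Baudin at 24 h can therefore depend on the added 0.5. The log2 difference was -2.77 at 24 h and -0.66 at 48 h. The mean difference was -1.72 ± 0.404 (95% confidence interval -2.90 to -0.54, adjusted p = 0.419 in limma), so it did not pass. A ratio over 3 nt rests on few bases and on an exon depth of 17.2 on average.

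The other events without overlap had smaller differences. In MLOC_72168.2, with A3S of 9 nt, the ratio was between 0.113 and 0.161 in Stirling and Baudin and between 0.191 and 0.283 in Bass and Harrington (-0.78 ± 0.117, adjusted p = 0.171 in limma). MLOC_81766.1, a subunit of the THO complex that links transcription to mRNA export, had A3S of 3 nt with ratios from 0.0205 to 0.0304 against 0.0338 to 0.0660 (-0.87 ± 0.219). MLOC_72883.3, an RNA-binding protein, had A5S of 24 nt with ratios from 0.0415 to 0.0632 against 0.0360 to 0.0381 (0.58 ± 0.142). In MLOC_12272.1, MLOC_61270.3 (a NAC domain protein, of a plant family of transcription factors), MLOC_57406.1 and MLOC_36345.3 the differences were from -0.46 to 0.29. None of these passed the adjustment over 173 events.

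**Figure D5:**
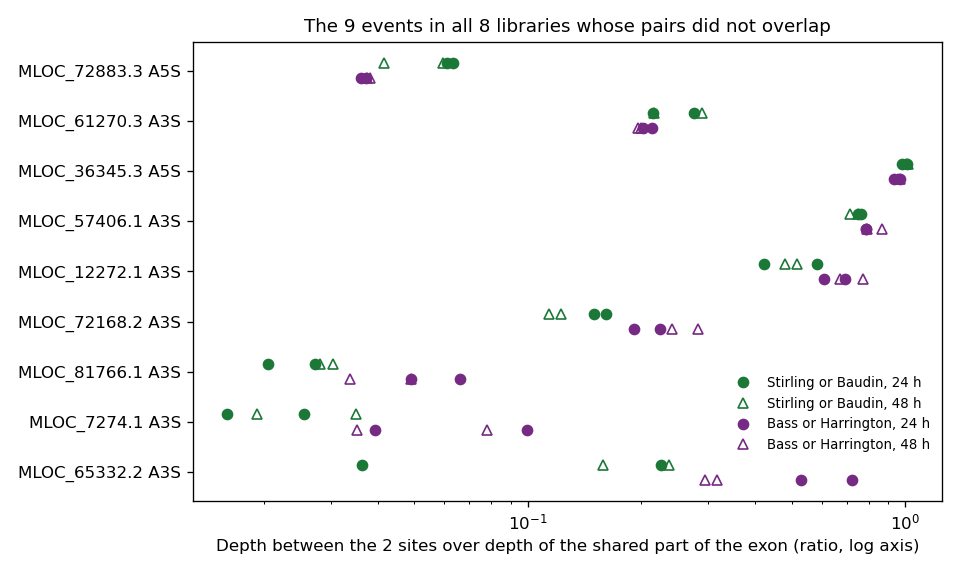
The horizontal axis is the depth between both sites over the depth of the shared part of the exon (ratio, log axis), for the 9 events in all 8 libraries whose pairs did not overlap. Each point is a library, green for Stirling or Baudin and purple for Bass or Harrington, filled at 24 h and open at 48 h. MLOC_65332.2 at the bottom runs from 0.0364 to 0.237 in green and from 0.295 to 0.723 in purple.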

How the data were processed

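Messenger RNA of germinating embryos was sequenced with paired-end reads by a protocol that does not mark strand, so reads of overlapping genes cannot be told apart. The authors aligned reads to the Morex genome (IBSC) with SOAPaligner/Soap2, called junctions with SOAPsplice and deposited an A3S and an A5S list per library. The deposited values are the read depth (coverage) of each of the 3 exons, read here as a mean, and a value from 0.5 to 1. That value was read here as the share of the bases of the exon with reads, although the deposited note calls it a minimum depth. How depth was computed is not given in the sources used here. Annotated depths gave whole sums over the covered bases in 93.2%, and alternative depths gave whole sums over the full length in 100%. The depths of both exons may thus have unlike denominators. No listed depth was below 2. Junction reads were not analysed here, and depth gives the only precision.

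The lists were analysed in Python 3.11.15 with pandas 2.3.3. Log2 depths and site ratios, with 0.5 added, were tested with limma 3.58.1 in R 4.3.3 (Benjamini-Hochberg, threshold 0.05) after a test on simulated data. The simulated data stood for exon depth alone, with a log2 change of 4 and less noise than the real data. They do not show whether smaller differences could be found. The variety was the replicate. Of 1384 depths between sites, 83 were below 0 and set to 0. The members and lists were chosen with earlier results of these data known. Named events were those in all 4 libraries of a pair, the 4 deepest in 3 libraries per pair, up to 5 exons and 5 events past the limma threshold, and events of the study's hormone genes and of the word lists. Events of other described genes, and any others in the text, were picked with their values known. Descriptions are from the study's supplementary tables. Alternatives were the number of libraries required, the definition of an event, a minimum depth of 10, a pseudocount of 1, each time alone, no centring, a variety block and each library or variety left out.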

Additional observations from a re-analysis of the deposited data

How the results depend on the processing

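The counts of the sides depended on how many libraries were required, and the main values were 37 events for Stirling and Baudin and 35 for Bass and Harrington. With all 4 libraries required they were 3 and 1, and with at least 2 libraries of both varieties 262 and 216. A minimum depth of 10 gave 24 and 24, lists cut to equal length, chosen after seeing the data, 23 and 36, and the gene in place of the event 53 and 28. Leaving out each library in turn gave 10 to 81 and 7 to 58, and each of the 8 libraries moved at least 1 side by over 1.5 times. All 3 libraries left in a pair then had to list the event, or 3 in place of 4 had to lack it. The pairing had the fewest events of the 3 pairings in 6 of 6 alternatives and in 6 of 8 counts without a library. For A5S alone this was so in 3 of 6 and 4 of 8. Among the 6 alternatives, the event without its constitutive exon gave the main counts again (37 and 35), so it adds nothing to them.

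The difference in sharing within minus across the pairs, in percentage points, ranged with a variety left out from -3.36 (without Baudin) to 0.532 (without Bass) for A3S at 24 h and from -1.23 to 0.924 for A3S at 48 h. It ranged from -2.39 to -0.159 for A5S at 24 h and from -0.355 to 0.939 for A5S at 48 h. For A5S at 48 h, where the main value was 0.23, it was -1.79 as a percentage of the shorter list, 1.78 with the gene in place of the event, -0.486 with a minimum depth of 10 and 1.19 with lists of equal length. The cause was not tested. Of 8 alternatives each, 1, 4, 0 and 4 changed its sign, in the order A3S at 24 h, A3S at 48 h, A5S at 24 h and A5S at 48 h. In limma, no exon and no event passed under any alternative that was run. Each variety had a library at 24 h and at 48 h, and the fit with the variety as a random block also held time as a term. Libraries of the pairs could not be matched in any other way, because the labels give no replicate numbers that the groups share.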
